A study of Mus musculus with 6 samples.

Results

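The genes described here are 30 genes of B cells and plasma cells, out of 34844 gene names on the array, measured in glomeruli, the capillary tufts where the kidney filters blood. They were found by name on a 1-colour Agilent mouse array, with Jchain listed under its older name Igj, and have 41 probes in all. Each gene takes the value of its brightest usable probe. Of the 30 genes, 25 were well above the array's local background on all 6 arrays and were tested, and 5 (Fcrla, Cd180, Blk, Tnfrsf17 and Pax5) were not.

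The arrays compared male BXSB/MpJ-Yaa mice, a model of autoimmune glomerulonephritis, with male BXSB/MpJ-Yaa+ controls, both aged 4 months. Both strains share the recombinant inbred BXSB background, which goes back to a C57BL/6 female and an SB/Le male. Yaa males carry a Y chromosome onto which a stretch of the X chromosome near its end was copied, whereas Yaa+ males have a wild-type Y chromosome. Glomeruli came from mice perfused with beads. Each array held a pool of 2 glomerular populations, drawn from 6 in each strain, so there were 3 arrays per strain. A p-value below therefore measures the spread between pools of animals and not between single mice. In whole glomeruli, a change in the number of cells of a type and a change in RNA per cell cannot be told apart.

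B cells recognise antigen through a surface immunoglobulin that signals through the paired chains CD79A and CD79B, tuned by coreceptors such as CR2 and CD22. After activation and help, some become plasma cells, which lose most B cell surface genes, raise PRDM1 and XBP1, and secrete antibody. In lupus-like nephritis, antibody deposits in the glomerulus, and B lineage cells can gather in the kidney, mostly around vessels and between tubules.

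Values are log2 signals relative to the array's 75th percentile over probes, so 0 is a signal at that percentile, and each is on its own probe's scale. Levels of different genes are therefore not compared. Differences are on the log2 scale, Yaa minus control, ± SE (n = 3 arrays per group), with adjusted p-values from limma over 20716 genes, and a gene rose or fell where this was under 0.05. The 75th percentile of the signal was between 235.1 and 377.3, and 50.5% (Yaa replicate 1) to 59.8% (Yaa replicate 3) of spots were well above background. Of 12 tested genes of the copied X segment, 9 rose and 0 fell on the arrays labelled Yaa, which bears on the labels because the source name gives the other strain for every sample. All 8 tested podocyte markers were well above background on all 6 arrays, with differences from -0.40 to -0.04. The B cell markers Ms4a1, Cd79a, Cd79b, Cd22, Cr2 and Fcer2a were above background on all 6 arrays, in controls too, whereas Pax5 and Blk were above it on 0 arrays.

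Among the 25 genes tested, 4 rose (Pou2f2, Ly86, Cd83 and Jchain), 0 fell and 21 did not pass. Of all genes tested 3.81% passed, 2.96% upward and 0.85% downward. The median difference of the 25 was 0.46, beside -0.11 for all genes. At an unadjusted p under 0.05 there were 11 of the 25, 10 higher and Sdc1 lower, where 16.1% of all genes reached it. The 3 Yaa arrays all lay above the 3 control arrays for 10 of the 25 genes, against 7.81% of all genes, and below them for 1, against 17.4%. When same-numbered arrays were blocked (replicate block), 2 of the 25 rose, Ly86 and Pou2f2. With control replicate 2 or control replicate 3 left out, the same 2 genes rose. The median was 0.82 without Yaa replicate 2, 0.24 without Yaa replicate 1 and 0.26 without Yaa replicate 3. Normexp background correction, which pulls dim signals together, gave a median of 0.25. Among the dimmer genes below it gave Fcer2a -0.28, Tnfrsf13c 0.14, Cxcr5 0.25 and Spib 0.34, and the dimmer probes of Cd79a -0.20, Cr2 0.03 and Bach2 -0.40.

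**Figure D1:**
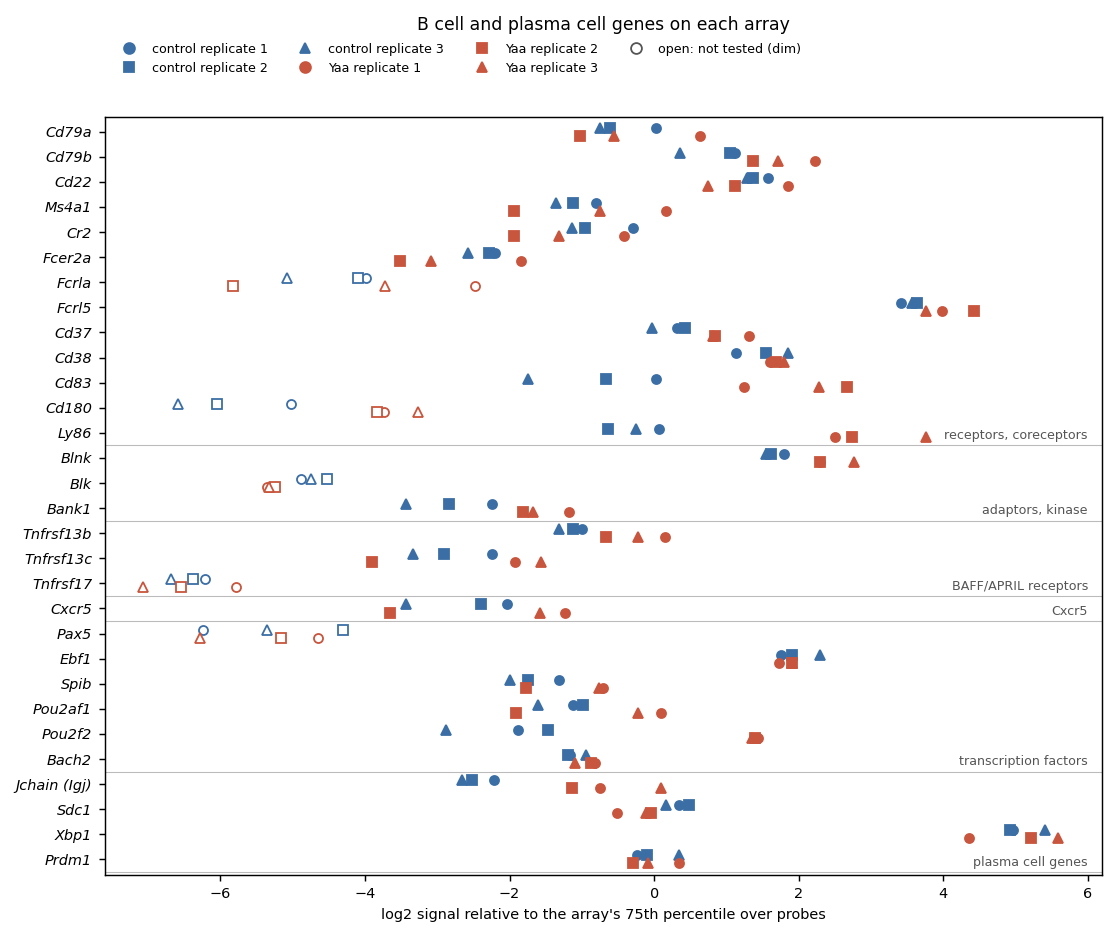
Each row is a gene and each point 1 array, as log2 signal relative to the array's 75th percentile, with controls in blue, Yaa in red and open points for genes too dim to be tested. Pou2f2, Ly86, Cd83 and Jchain have their red points well to the right of the blue, while Ms4a1, Cxcr5 and Tnfrsf13c have Yaa replicate 2 to the left of all controls.

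Of the 13 receptors, coreceptors and surface proteins, 11 were tested, and 2 rose. The probe stretches behind the 4 genes that rose are given so that the measured transcript can be found. Each is the first 30 bases, 5′ to 3′, of a 60-base probe, all in lower case because no base is singled out.
Pou2f2: tcgtcttcttcatcctcatcatcctccacg
Ly86: cctgagtagtcttgaagccctattgtagta
Cd83: agctattgcgccacgacaggaggaagttct
Jchain: ctgtactagtctttctcttaacctctcact
On mm9, the build of the file annotation, the whole probes lie at chr7:25877735-25877794 (Pou2f2), chr13:37510701-37510760 (Ly86), chr13:43898276-43898335 (Cd83) and chr5:88949919-88949978 (Jchain). No mm9 gene annotation was used here, so their place in exon or untranslated region is not given.

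Ly86 encodes MD-1, the secreted partner of the Toll-like protein CD180 on B cells and myeloid cells. Its signal was 0.07, -0.64 and -0.25 in controls and 2.50, 2.73 and 3.76 in Yaa glomeruli. All 3 Yaa pools lay far above the controls, and Yaa replicate 3 was the highest. Ly86 rose by 3.27 ± 0.35 (adjusted p = 0.00342), or 9.64-fold, and it rose under every alternative run, with adjusted p between 0.00144 and 0.028. Its partner Cd180 was well above background on 0 control arrays and 2 Yaa arrays and was not tested. The Cd180 signals were -5.03, -6.05 and -6.59 in controls and -3.74, -3.83 and -3.27 in Yaa, which do not overlap and differ by 2.28. After normexp background correction that difference was 0.24, and with no filter on dim probes its limma adjusted p was 0.101.

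Cd83, an activation marker of B cells and dendritic cells, read 0.02, -0.66 and -1.75 in controls and 1.24, 2.67 and 2.28 in Yaa. The groups did not overlap, but the arrays within each spread widely, with control replicate 3 lowest and Yaa replicate 1 lowest of its group. Cd83 rose by 2.86 ± 0.52 (limma adjusted p = 0.0339). In the blocked fit the adjusted p was 0.0925, and it was 0.119 when dim probes were not filtered. Leaving out control replicate 2, control replicate 3, Yaa replicate 2 or Yaa replicate 3 gave adjusted p of 0.117, 0.0928, 0.0913 and 0.104.

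Neither signalling chain of the B cell receptor passed the test. Cd79b read 1.12, 1.05 and 0.36 in controls and 2.23, 1.36 and 1.71 in Yaa. All Yaa arrays lay above the controls, with Yaa replicate 1 highest, and the difference of 0.92 ± 0.29 did not pass (adjusted p = 0.18). Cd79a read 0.03, -0.61 and -0.75 in controls and 0.63, -1.02 and -0.55 in Yaa. Its groups overlapped, with Yaa replicate 1 the highest array and Yaa replicate 2 the lowest, at a difference of 0.13 ± 0.43 (adjusted p = 0.894). The difference between the chains was not tested.

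The file annotation places the Cd79a probe used here at chr12:53180558-53180617 (mm9), on another chromosome than the gene's second probe, which spans 258 bases at chr7:25684357-25684614. The last 30 bases of the first probe are shown because the probes disagree on the chromosome. They hold the polyadenylation signal AATAAA, in capitals, and end in a run of 6 A.
Cd79a, probe placed on chromosome 12: gtgatAATAAAtccttcccaaagcaaaaaa
The probe on chromosome 7 was dimmer, at -2.96, -3.05 and -3.16 in controls and -2.81, -3.81 and -3.95 in Yaa. Its groups overlapped and differed by -0.47, the opposite sign, and the mean of both probes gave -0.17 ± 0.35. Which probe reports Cd79a was not tested.

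Ms4a1, which encodes CD20, read -0.80, -1.13 and -1.36 in controls and 0.17, -1.94 and -0.75 in Yaa. Yaa replicate 1 was above all controls and Yaa replicate 2 below all of them, so the group difference was 0.26 ± 0.50 (adjusted p = 0.816). Cd22, an inhibitory coreceptor, read 1.57, 1.36 and 1.28 in controls and 1.85, 1.12 and 0.74 in Yaa, with Yaa replicate 1 again highest, and differed by -0.17 ± 0.28 (adjusted p = 0.784). Cr2, the complement receptor CD21, read -0.29, -0.96 and -1.14 in controls and -0.42, -1.94 and -1.31 in Yaa.
Both lower Yaa arrays of Cr2 lay under every control, while Yaa replicate 1 lay among them, at a difference of -0.43 ± 0.40 (adjusted p = 0.624). The dimmer Cr2 probe differed by 0.17. Fcer2a, the low-affinity IgE receptor CD23, read -2.20, -2.29 and -2.58 in controls and -1.84, -3.51 and -3.09 in Yaa. Yaa replicate 1 was above all controls and the other Yaa arrays below them, at -0.46 ± 0.41 (adjusted p = 0.605).

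Cd37, a tetraspanin of mature B cells that other leukocytes also carry, read 0.32, 0.42 and -0.03 in controls and 1.31, 0.84 and 0.81 in Yaa. The groups did not overlap, and the difference of 0.75 ± 0.20 did not pass (adjusted p = 0.108). Its dimmer probe, above background on 2 control arrays and 3 Yaa arrays, differed by 1.36 (0.37 after normexp correction), and the mean of both probes gave 1.06 with an adjusted p of 0.0376. Cd38, an ectoenzyme of lymphocytes, read 1.13, 1.55 and 1.85 in controls and 1.60, 1.69 and 1.8 in Yaa. Its Yaa arrays lay within the range of the controls (0.19 ± 0.20, adjusted p = 0.661).

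Fcrl5 and Fcrla belong to the family of Fc receptor-like proteins. Fcrl5 has a pair of probes, which the file annotation gives to different transcript variants. The first 30 bases of each show that they read different sequences, at chr3:87271386-87271445 for the bright one and chr3:87304541-87304600 for the dim one (mm9).
Fcrl5, bright probe: tgggcctcccccctaccccctttataagcg
Fcrl5, dim probe: tttcctcacagcaacagaaaaatgtctgat
The bright probe read 3.41, 3.63 and 3.57 in controls and 3.98, 4.42 and 3.76 in Yaa, with no overlap, and differed by 0.51 ± 0.19 (adjusted p = 0.253). The dim one was above background on 0 control arrays and 1 Yaa array. Yaa replicate 2 was the highest of the bright probe. That array was the lowest Yaa array for 13 of the 25 genes, against 21.8% of all genes. Fcrla, above background on 0 control arrays and 2 Yaa arrays, read -2.48 and -3.72 on the Yaa arrays of higher signal and -5.83 in Yaa replicate 2, with controls at -3.99, -4.10 and -5.08. It overlapped between groups and was not tested.

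Of the intracellular signalling genes, 2 of 3 were tested and 0 passed. Blnk, the adaptor that links the kinase SYK to phospholipase C in B cells and is also made by myeloid cells, read 1.79, 1.62 and 1.54 in controls and 2.29, 2.29 and 2.76 in Yaa. The groups were well apart, and the difference of 0.80 ± 0.17 just missed the threshold (limma adjusted p = 0.061, and 0.0345 with an intensity trend and robust variances). Bank1, a B cell scaffold protein, read -2.25, -2.84 and -3.44 in controls and -1.18, -1.82 and -1.67 in Yaa. All Yaa arrays were above the controls, and the difference was 1.29 ± 0.32 (adjusted p = 0.0936). Its dimmer probe, above background on 2 control arrays and 3 Yaa arrays, differed by 1.66. After normexp correction these differences were 0.62 and 0.44. The kinase gene Blk was above background on 0 arrays, with signals between -5.36 and -4.53.

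The receptors for the survival factors BAFF and APRIL are Tnfrsf13c (BAFF receptor), Tnfrsf13b (TACI) and Tnfrsf17 (BCMA). None of the tested pair passed, and 1, Tnfrsf13b, reached an unadjusted p under 0.05 in limma. Tnfrsf13b read -1.0, -1.13 and -1.32 in controls and 0.15, -0.67 and -0.23 in Yaa. The Yaa arrays were all above the controls, with Yaa replicate 1 highest and Yaa replicate 2 lowest, and the difference was 0.90 ± 0.22 (adjusted p = 0.0922). It was 0.57 after normexp correction, and without Yaa replicate 2 it was 1.11 with an adjusted p of 0.0402. Its second probe, above background on all arrays, differed by -0.06, and its dimmest was above background on 0 arrays, so the probes disagree.
Tnfrsf13c read -2.24, -2.91 and -3.34 in controls and -1.92, -3.91 and -1.57 in Yaa. Yaa replicate 2 was below every control and the other Yaa arrays above every control, at a difference of 0.36 ± 0.62 (adjusted p = 0.79). Tnfrsf17, the plasma cell receptor of the family, was above background on 0 arrays, with signals between -7.07 and -5.79.
Cxcr5, the receptor that guides B cells and follicular helper T cells towards CXCL13, had the same pattern. It read -2.04, -2.39 and -3.43 in controls and -1.24, -3.65 and -1.58 in Yaa. Yaa replicate 2 was again below all controls, and the difference was 0.46 ± 0.67 (adjusted p = 0.749).

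**Figure D2:**
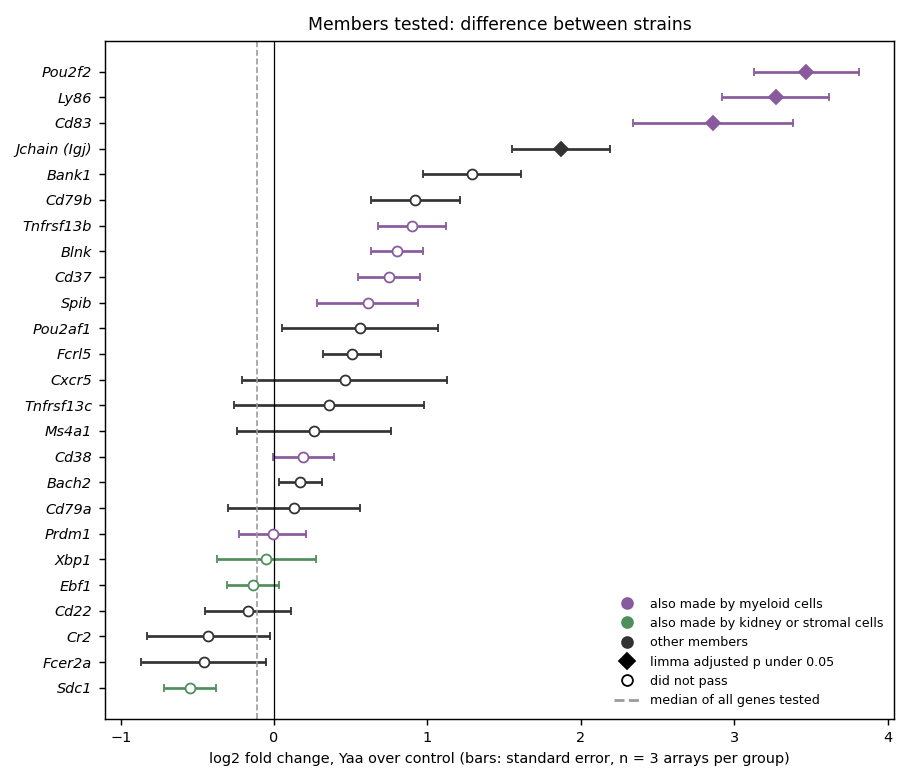
Each row is 1 of the 25 genes tested, with its log2 fold change of Yaa over control on the horizontal axis, bars for the standard error (n = 3 arrays per group), and filled diamonds where the limma adjusted p was under 0.05. The 3 largest differences (Pou2f2 3.47, Ly86 3.27, Cd83 2.86) belong to genes that myeloid cells also make, and Jchain (1.87) is the other that rose.

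Of the 6 B cell transcription factors, 5 were tested and 1 rose. Pou2f2 encodes OCT-2, the octamer-binding factor of B cells, which activated myeloid cells also make. It read -1.88, -1.47 and -2.88 in controls and 1.43, 1.40 and 1.35 in Yaa. The Yaa arrays lay close together (SD 0.04) and were far above all controls, which spread more (SD 0.72). Pou2f2 rose by 3.47 ± 0.34 (adjusted p = 0.00218), or 11.1-fold. It rose under every alternative run, with adjusted p between 0.00027 and 0.0139 and a difference of 2.63 after normexp correction. The second Pou2f2 probe, which spans 1163 bases of the genome at chr7:25878678-25879840, read -1.38, -1.21 and -0.54 in Yaa and was above background on 0 control arrays (-4.21, -4.38 and -4.27). On that probe Yaa was at least 8.58-fold higher, where each control array is set at the higher of its own signal and the lowest signal well above background on that array. That lowest signal is not a detection limit, and normexp correction gave 1.30 (log2) on this probe, less than the bound of 3.1.

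Pou2af1 encodes the coactivator OBF-1, which works with the octamer factors. It read -1.13, -0.98 and -1.61 in controls and 0.09, -1.91 and -0.22 in Yaa. Yaa replicate 2 was below all controls and the other Yaa arrays above them, at 0.56 ± 0.51 (adjusted p = 0.609). Spib, an ETS factor of B cells and plasmacytoid dendritic cells, read -1.32, -1.74 and -2.0 in controls and -0.71, -1.78 and -0.76 in Yaa, with Yaa replicate 2 among the controls (0.61 ± 0.33, adjusted p = 0.412).
Bach2, a repressor that delays plasma cell formation, read -1.17, -1.19 and -0.95 in controls and -0.82, -0.88 and -1.10 in Yaa, which overlap (0.17 ± 0.14, adjusted p = 0.574). Its dimmer probe, above background on 2 arrays of each group, differed by -1.06. Ebf1, which specifies B cells and is also made by stromal and mesenchymal cells, read 1.75, 1.90 and 2.30 in controls and 1.73, 1.90 and 1.91 in Yaa (-0.14 ± 0.17, adjusted p = 0.711). Pax5, the factor that holds B cell identity, was above background on 0 arrays with either of its probes.

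Promoter sequence was searched for the octamer ATGCAAAT, the motif that OCT-2 binds, on both strands, 250 bases before to 50 after each RefSeq gene start (GRCm38.p6). Of the 30 genes 25 were in that table. The octamer was found in 1 of them, Blnk (4.0%, against 1.97% of all gene symbols in the table). The Blnk window is shown because it holds the motif, in capitals on the opposite strand, 130 to 123 bases before the start.
Blnk, chr19:40994319-40994376, minus strand: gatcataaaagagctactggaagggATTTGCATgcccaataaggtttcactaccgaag

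Of the 4 plasma cell genes, 1 rose, Jchain, the joining chain of polymeric IgM and IgA. It read -2.22, -2.52 and -2.66 in controls and -0.75, -1.14 and 0.10 in Yaa. All Yaa arrays were above all controls, and Yaa replicate 3 was the highest. Jchain rose by 1.87 ± 0.32 (adjusted p = 0.0251), or 3.66-fold, and by 1.14 after normexp correction (adjusted p = 0.0412). The adjusted p was 0.0651 in the blocked fit and 0.0996 when dim probes were not filtered. It was 0.0646, 0.108 and 0.12 without control replicates 1, 2 and 3.

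The other plasma cell genes are also made by kidney or stromal or myeloid cells. Sdc1, the syndecan CD138, which epithelial cells carry too, read 0.34, 0.48 and 0.16 in controls and -0.52, -0.04 and -0.11 in Yaa. Its Yaa arrays were all below the controls, the only tested gene of the 25 with that order, and the difference of -0.55 ± 0.17 did not pass (adjusted p = 0.181). The 7 tubule markers, of another epithelium, ran from -0.96 to -0.06, and 1 (Slc12a1) fell. Their summed signal was 90.5 to 105 times the 75th percentile in controls and 53.7 to 83.8 in Yaa. Umod, the brightest probe of the list, gave 63% to 71.8% of that sum on each array. Without Umod the sums overlapped, at 25.4 to 37.8 in controls and 15.2 to 30.9 in Yaa. Slc12a1 did not pass without any 1 of the controls, without Yaa replicate 2 or 3, or with no filter (limma adjusted p between 0.054 and 0.122). The part of the tubule markers in the Sdc1 value was not tested.
Xbp1, the transcription factor of the secretory programme in many cells, read 4.96, 4.92 and 5.41 in controls and 4.35, 5.21 and 5.58 in Yaa (-0.05 ± 0.32, adjusted p = 0.955). Yaa replicate 1 was its lowest array and Yaa replicate 3 its highest. Prdm1, the plasma cell repressor BLIMP-1, read -0.24, -0.10 and 0.34 in controls and 0.35, -0.29 and -0.08 in Yaa, which overlap almost fully (-0.01 ± 0.22, adjusted p = 0.991).

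The 4 genes that rose can be read beside other leukocyte markers. In a split made by hand, 10 of the 30 genes were taken as also made by myeloid cells, dendritic cells included. These are Ly86, Cd180, Cd37, Cd38, Cd83, Blnk, Pou2f2, Prdm1, Spib and Tnfrsf13b. A further 3 were taken as made by kidney or stromal cells (Ebf1, Sdc1 and Xbp1), and 17 were put in neither set. Other sources of the 17 were not checked. Of the 9 tested myeloid-shared genes 3 rose, with a median of 0.80. Of the 13 tested genes in neither set 1 rose, Jchain, with a median of 0.36. The 3 kidney or stromal genes had a median of -0.14 and 0 passed, and 1, Sdc1, reached an unadjusted p under 0.05 in limma. Of all genes tested 2.96% rose. The sets were drawn with earlier results of these data known, so their counts and medians are a description and not a test of the split. The difference between these medians was not tested.

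Macrophage markers moved with strain. Of 16 tested, 12 rose and 0 fell, with a median of 3.66. C1qa, Ms4a7 and Fcgr1 were above background on 1 control array each, and entered the test only through the Yaa arrays. Among the markers above background on all 6 arrays, 9 of 13 rose. The summed signal of the 16, as multiples of the array's 75th percentile, was 167 to 201 in controls and 288 to 315 in Yaa. Itgam, the brightest probe of the list, gave 19.5% to 77.5% of that sum on each array, and without it the sum was 43.7 to 46.3 in controls and 154 to 240 in Yaa. Cd163 of the list was too dim to be tested. Cd14, Mertk, Mrc1 and Itgam did not pass. Over the 9 myeloid-shared genes the summed signal was 10.7 to 11.0 in controls and 24.1 to 35.4 in Yaa. Ly86 gave 6.02% to 38.3% of that sum on each array. Without Ly86 the sum was 9.84 to 10 in controls and 18.5 to 21.8 in Yaa. The part of macrophages in the values of Pou2f2, Ly86 and Cd83 was not tested. Of 4 tested dendritic cell markers, 2 rose (Itgax by 4.36 and Flt3 by 0.97), and Xcr1 and Cd209a were too dim to be tested. Clec9a (1.18 ± 0.29, limma adjusted p = 0.0904) and Zbtb46 (0.01 ± 0.13, limma adjusted p = 0.974) did not pass. Flt3, above background on 1 control array, did not pass after normexp correction (0.14). The summed signal of the list was 1.02 to 1.28 in controls and 10.7 to 19.0 in Yaa, and without Itgax it was 0.411 to 0.453 and 0.563 to 0.732. Of 4 tested plasmacytoid dendritic cell markers, 0 passed and 1 reached an unadjusted p under 0.05 in limma, which 16.1% of all genes reached. The summed signal of the 4 was 350 to 361 in controls and 298 to 401 in Yaa. Siglech gave 72.2% to 89.3% of that sum, and without it the sum was 44.6 to 51.4 in controls and 43 to 82.9 in Yaa.

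Within each strain, the 13 genes in neither set tended to be high or low on the same arrays. Yaa replicate 1 was the highest Yaa array for 10 of them and Yaa replicate 2 the lowest for 10. Both held together for 8 of the 13 (61.5%), against 13.0% of all genes. Among controls, replicate 1 was the highest and replicate 3 the lowest for 10 of the 13 (76.9%), against 18.5% of all genes. The mean log2 level of the 13 was -0.63, -0.91 and -1.23 in controls and 0.06, -1.14 and -0.43 in Yaa. So Yaa replicate 1 stood above all controls, and Yaa replicate 2 below control replicates 1 and 2. The median SD of the 13 within a group was 0.33 in controls and 0.76 in Yaa, against 0.15 and 0.25 over all genes. This spread enters the SE of their differences, for which limma pools both groups and draws each variance towards a value shared by all genes.

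**Figure D3:**
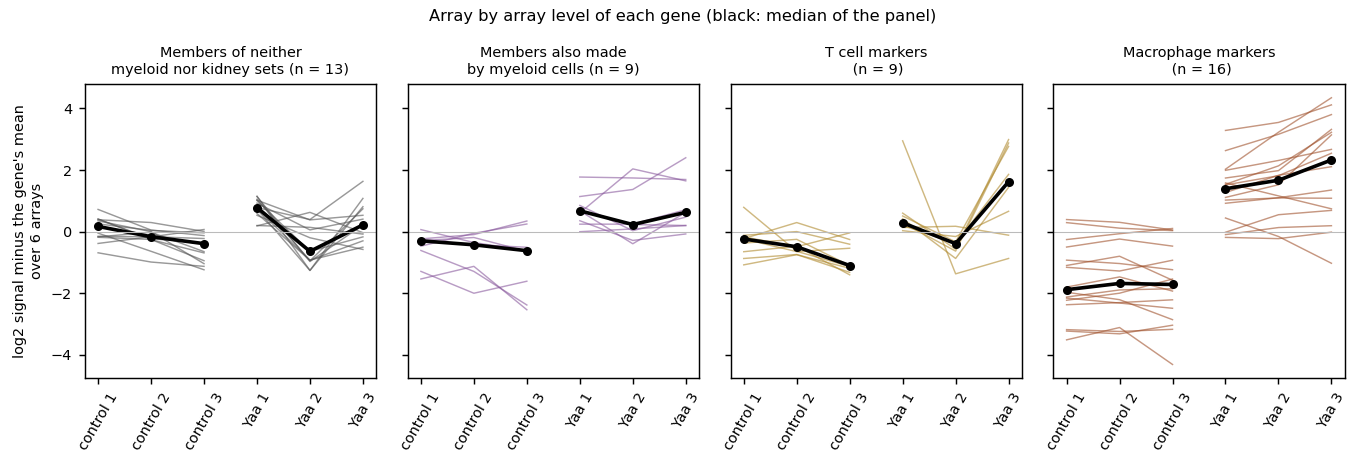
Each thin line is 1 gene, drawn as its log2 signal minus its mean over the 6 arrays, and black marks the median of the panel; lines join the arrays of a strain only to keep a gene in view, since pools have no order. In the left panel Yaa replicate 2 dips below the controls for most of the 13 genes, whereas in the macrophage panel all 3 Yaa arrays are high.

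Genes of the B lineage that are not among the 30 had a like order. Of 13 tested, Yaa replicate 1 was highest and Yaa replicate 2 lowest for 7 (53.8%, against 13% of all genes). Control replicate 1 was highest and control replicate 3 lowest for 6 (46.2%, against 18.5% of all genes). T cell markers were also low in Yaa replicate 2, the lowest Yaa array for 8 of 9, against 21.8% of all genes. They were highest in Yaa replicate 3 for 7 of 9. The mean log2 level of the 9 was -0.76, -0.85 and -1.26 in controls and 0.16, -0.94 and 1.03 in Yaa. Of the 9, 0 passed in limma and 2 reached an unadjusted p under 0.05, which 16.1% of all genes reached. The summed signal of the 9 was 8.10 to 11.1 in controls and 10.6 to 30.5 in Yaa, and Cd8b1 was too dim to be tested. The macrophage markers ran another way: Yaa replicate 1 was the lowest Yaa array for 13 of 16, and Yaa replicate 3 the highest for 13. Over the 20713 genes with a value on all 6 arrays, Yaa replicate 1 was lowest for 7710 and Yaa replicate 3 highest for 5913. Yaa replicate 1, where the B cell genes were highest, also had the lowest share of spots above background. The part of T cells, and of that share, in the order of the B cell genes was not tested.

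Other genes of B cell receptor signalling were given by a list of 22, all tested. Of these, 13 rose, 0 fell and 9 did not pass, with a median of 1.29. Fcgr2b was above background on 2 control arrays and Pik3ap1 on 0, so both entered the test only through the Yaa arrays. Among the genes of the list above background on all 6 arrays, 11 of 20 rose. Cd72, an inhibitory coreceptor of B cells that macrophages also make, read -0.77, -1.26 and -1.24 in controls and 3.61, 4.41 and 4.51 in Yaa, with no overlap. It rose by 5.27 ± 0.27 (adjusted p = 0.000374). The kinase Prkcb rose by 3.14 ± 0.18. The exchange factor Vav1 (3.08 ± 0.17) and the kinases Syk (2.85 ± 0.22), Btk (2.67 ± 0.25) and Lyn (1.37 ± 0.16) rose, as did the phosphatases Ptpn6 (2.97 ± 0.24) and Ptprc (2.73 ± 0.27). Fcgr2b, the inhibitory Fc receptor, the adaptors Pik3ap1 and Dapp1, and the phospholipase Plcg2 also rose. In the blocked fit 12 of the list rose, without Plcg2 (0.70 ± 0.13, adjusted p = 0.0343, and 0.0593 blocked). Plcg2 also failed without any 1 of the controls or Yaa replicate 2 or 3 (0.0843 to 0.174), with median scaling (0.0527) and with no filter (0.153). Dapp1 (1.21 ± 0.17, adjusted p = 0.0128) failed without any 1 of the controls (0.063 to 0.0717), with no filter (0.0654) and with the mean of its probes (0.0719). Pik3ap1, above background on 0 control arrays, failed after normexp correction (0.11). Most named genes of this list are known in myeloid cells as well. Of the tested macrophage markers, 12 of 16 also rose. The part of macrophages in the values of this list was not tested.

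Of 13 tested further B lineage genes, 1 rose and 0 fell, with a median of 0.35. It was Bcl11a, a factor of early B cells and of plasmacytoid dendritic cells, which read -3.24, -3.39 and -3.29 in controls and -1.81, -1.50 and -2.01 in Yaa. Its groups were far apart, at 1.54 ± 0.16 (adjusted p = 0.00314), but it did not pass after normexp correction (0.76, adjusted p = 0.0727). Without Yaa replicate 2, 3 genes of the list rose. The receptor Ccr6 differed by 1.51 ± 0.56 (adjusted p = 0.256), Ltb, a lymphotoxin chain, by 1.30 ± 0.37 (adjusted p = 0.138), and Bcl6, the germinal centre repressor, by 0.80 ± 0.22 (adjusted p = 0.124).

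Of 4 tested ligands of the receptors above, 2 rose and 0 fell. Cxcl13, the ligand of CXCR5, read 1.31, 1.69 and 1.28 in controls and 3.20, 4.38 and 3.72 in Yaa. The groups were far apart, with Yaa replicate 2 highest, the array where Cxcr5 itself was lowest. Cxcl13 rose by 2.34 ± 0.30 (adjusted p = 0.00755), and without control replicate 3 its adjusted p was 0.0527. Tnfsf13b, which encodes BAFF, read -3.48, -3.88 and -3.51 in controls and -2.82, -2.88 and -2.41 in Yaa, and rose by 0.92 ± 0.19 (adjusted p = 0.0473). This call was lost in the blocked fit (0.052), without any 1 of the 6 arrays (0.0612 to 0.177), and after normexp correction, where the difference was 0.28 (0.254). It was also lost with quantile scaling (0.0654), median scaling (0.0664), no filter (0.171) and an intensity trend with robust variances (0.0942). C3, whose fragments bind CR2, differed by 1.33 ± 0.31 (adjusted p = 0.0783) and Cxcl12 by 0.40 ± 0.19 (adjusted p = 0.366).

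Genes of antibody secretion and protein folding, which plasma cells raise, were given by a list of 23. Of 21 tested, 0 passed in limma and 0 reached an unadjusted p under 0.05, with a median of 0.05. Mzb1, a chaperone of B cells and plasma cells (named 2010001M09Rik on the array), differed by 0.48 ± 0.44 (adjusted p = 0.617), and Derl3, of the secretory pathway, by 0.90 ± 0.44 (adjusted p = 0.367). Irf4 and Fkbp11 were too dim to be tested.
Of 7 immunoglobulin names on the array, 2 were tested, and 0 passed or reached an unadjusted p under 0.05 in limma. Ighv14-2, a heavy chain variable segment, read 0.10, 0.05 and -0.87 in controls and 1.00, -1.60 and -0.66 in Yaa. It was highest in Yaa replicate 1 and lowest in Yaa replicate 2, the same order as Ms4a1, and differed by -0.18 ± 0.64 (adjusted p = 0.906). Igkv4-72 differed by -0.40 ± 0.31 (adjusted p = 0.55). A probe to 1 variable segment reads only the cells that use it. Igkc, a constant region name, was also on the array but did not pass the background filter and was not tested.

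**Figure D4:**
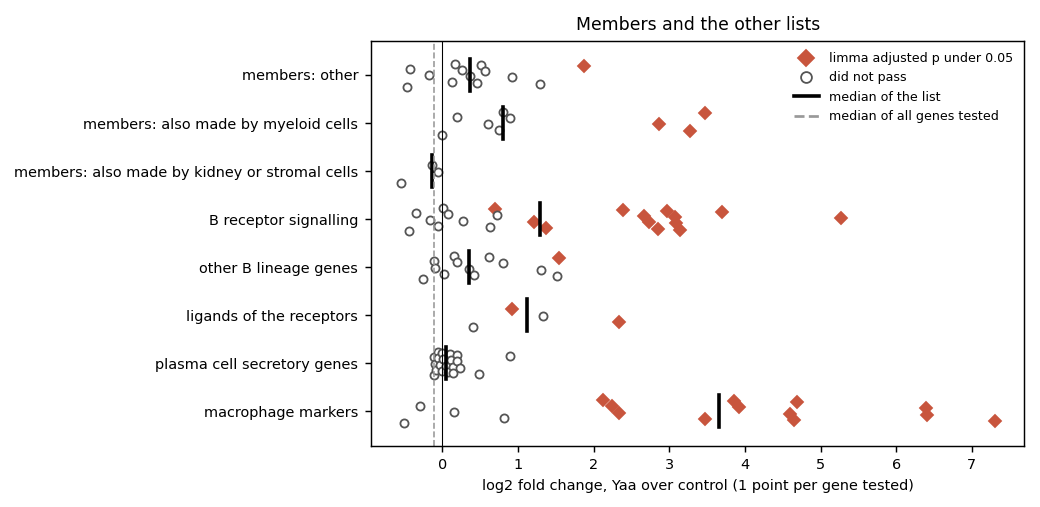
Each point is 1 gene tested, at its log2 fold change of Yaa over control, in rows by list; red diamonds passed the limma test, black bars mark the list's median and the dashed line the median of all genes (-0.11). The receptor signalling and macrophage rows reach far to the right, with 13 and 12 red points, while the secretory row sits near 0 with none.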

How the data were processed

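The 6 files hold scanner output of 1 array each, in linear units. The authors' intensity values were made, per the file headers, with Agilent Feature Extraction 10.7.3.1; the version in the submitters' processing notes is 9.5.3. The deposited signal was background-subtracted, with surrogate values for dim spots, and not scaled between arrays, which makes differences near background uncertain.

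Control spots (3671) and outlier spots (121 to 166 per array) were left out, log2 taken and the 75th percentile over probes subtracted. A probe was kept where well above background (a share of 0.5 or more of its spots) on all 3 arrays of a group, and a gene took its brightest kept probe. The test was lmFit and eBayes of limma 3.58.1 under R 4.3.3 (two-sided, Benjamini-Hochberg over 20716 genes, threshold 0.05), tested first on simulated data. In that model 790 genes (3.81%) passed. No spot was saturated. All arrays lay on 1 slide, in columns by strain, so column and strain cannot be told apart.

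Same-numbered arrays deviated together (correlations 0.126, 0.205 and 0.218 over all genes, against -0.194 to 0.028 for others), a pairing that comes from replicate numbers in the titles, which run with the slide rows; the blocked fit is given where it changes a call. All 30 genes are named, and of other lists those that passed or up to 4 with the smallest adjusted p. Mzb1, Derl3, Irf4, Fkbp11 and Igkc and the markers too dim were added after their values were seen. Some list genes that this rule takes, though counted, are not reported by name here. The genes and lists were chosen with earlier results of these data known.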

Additional observations from a re-analysis of the deposited data

How the results depend on the processing

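The alternatives were normexp background correction (offset 50), quantile and median scaling, no filter and a stricter filter on dim probes, the mean of a gene's probes, an intensity trend with robust variances, the replicate number as a block, each array left out, and, chosen after seeing the data, the percentile over spots. Of the values recomputed, 346 kept direction and side of the threshold, 11 lost the call, 3 gained it and 15 changed sign. With no filter, 396 genes changed (375 higher, 21 lower) and 2 of the 30 rose. With the replicate block, 98 genes were lower and 2 of the 30 rose; it ended the calls of Cd83, Jchain, Plcg2 and Tnfsf13b and no other call among the 25 genes or the lists of receptor signalling, further B lineage, ligands and macrophage, dendritic and tubule markers. Leaving out 1 array gave 395 to 1027 genes changed, 365 to 661 higher, 21 to 366 lower, 2 to 4 of the 30 higher, a median of 0.24 to 0.82 and 1 to 3 further B lineage genes higher, which were 0 after normexp correction. Sign changes touched only differences that never passed. With the mean of probes Cd79a was -0.17, with median scaling Prdm1 was 0.03 and with quantile scaling Xbp1 was 0.02. Leaving out 1 array gave Cd22 -0.47 to 0.08 (highest without Yaa replicate 3), Cd38 0.00 to 0.36 (lowest without control replicate 1), Cd79a -0.34 to 0.49 (also -0.02 without control replicate 3), Ebf1 up to 0.02 (without control replicate 3) and Ms4a1 -0.25 to 0.80. It gave Prdm1 -0.18 to 0.16 (also 0.13 and 0.03 without Yaa replicates 2 and 3), Tnfrsf13c -0.09 to 1.08 and Xbp1 -0.31 to 0.30 (also 0.11 without control replicate 3). The causes were not tested. No scaling moved the median of all genes by more than 0.04. Values of dim probes depend on the background correction, and 3 arrays a strain limit all values.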
